A study of Mus musculus with 20 samples.

Results

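Bulk RNA sequencing of mouse knee joints was used to follow 9 genes of serotonin and kynurenine metabolism, chosen by gene symbol from a table of 14793 genes. The members were Tph1, Ddc, Maoa, Maob, Slc6a4, Slc18a2, Afmid, Haao and Kmo, and all 9 were found. The animals were male C57BL/6Nci mice aged 12 weeks, and every group had surgical destabilization of the medial meniscus (DMM) of the right knee, a model of post-traumatic osteoarthritis, so the comparison holds no joint without surgery. Mice of the CTRL group then received needle insertion into the joint alone, and the other 3 groups received intra-articular mesenchymal stromal cells (MSC) from 1 pool of mouse adipose tissue in weeks 3 and 5. The cells were non-activated in the MSC group, activated with polyinosinic-polycytidylic acid (pIC), a TLR3 agonist, in the TLR group, and activated with 2′,3′-cGAMP, a STING agonist, in the STING group. Each group had 10 mice, of which 5 gave a joint for sequencing, for a total of 20 joints. The cartilage, synovium, capsule and adjoining bone of a joint were removed in 1 piece and polyA RNA was sequenced, so fewer cells of a type and less RNA per cell cannot be told apart.

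Serotonin is made from tryptophan in a pair of steps. Tryptophan hydroxylase, encoded outside the brain mainly by Tph1, carries out the rate-limiting step with tetrahydrobiopterin as cofactor, and the decarboxylase Ddc completes the synthesis. Slc6a4 is the transporter that takes serotonin up into platelets and nerve endings, Slc18a2 packs monoamines into vesicles and granules, and the mitochondrial monoamine oxidases Maoa and Maob degrade them. Most tryptophan instead enters the kynurenine route, in which Afmid releases kynurenine from its formyl precursor, Kmo hydroxylates it, and Haao opens the ring of 3-hydroxyanthranilate on the way to NAD.

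In the GRCm39 coordinates of the deposited table, Tph1 lies at chr7:46294065-46321962, Ddc at chr11:11764101-11848145, Maoa at chrX:16485937-16554058 and Maob next to it at chrX:16575521-16683606. Slc6a4 lies at chr11:76889429-76923167 and Slc18a2 at chr19:59249328-59284445. Of the kynurenine enzymes, Afmid lies at chr11:117716750-117730735, Haao at chr17:84138585-84155393 and Kmo at chr1:175447947-175489683.

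The depth of the 20 libraries ran from 27955496 to 52529973 reads on the genes of the table, with group medians of 33230113 for CTRL, 42283681 for MSC, 33141873 for TLR and 31917015 for STING. MSC replicate 5 stood apart in that 296 genes were at 0, against 0 to 97 in the other joints. Without it, the count of member differences at an unadjusted p of 0.05 over all 6 comparisons was 1, beside 7.68% of all genes. With it the count was 2, beside 5.96%. The Tph1 difference of TLR from MSC was 0.86 on the log2 scale without this joint. The tissue label was checked on lists of defining markers. The 5 cartilage genes summed to between 12469 and 177765 normalized read counts per joint, the 5 bone genes to between 80300 and 542443, and the 4 genes of the synovial lining to between 20698 and 555203, and no gene of these lists was at 0 across a group. Skeletal muscle (682694 to 2843880) and erythroid marrow (436527 to 1008860) were abundant in every joint. Epidermal genes reached 17925 in 1 TLR joint, where the median of that group was 138.

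The promoter sequences of Slc6a4 and Slc18a2 are shown because these are the transporters of the set. Their levels varied with platelet genes across the joints, as did those of Haao, Afmid and Kmo. All of these but Kmo also varied with erythroid genes at the threshold used below. The pair of annotated starts of Tph1 is shown because that gene, which rested on few reads, was not found to vary with the other members. Each sequence holds the 250 bases before a RefSeq start in GRCm38.p6, an older build than the GRCm39 of the deposited table, 5′ to 3′ on the strand of the gene. The Slc6a4 window lies at chr11:76998347-76998596 on the plus strand, the Slc18a2 window at chr19:59260628-59260877 on the plus strand, and the Tph1 windows at chr7:46672538-46672787 and chr7:46667378-46667627 on the minus strand. Capitals mark matches on either strand to AGATAA, the letters bound by GATA factors, to CCGGAA, an ETS core, or to TATAAA.
Slc6a4: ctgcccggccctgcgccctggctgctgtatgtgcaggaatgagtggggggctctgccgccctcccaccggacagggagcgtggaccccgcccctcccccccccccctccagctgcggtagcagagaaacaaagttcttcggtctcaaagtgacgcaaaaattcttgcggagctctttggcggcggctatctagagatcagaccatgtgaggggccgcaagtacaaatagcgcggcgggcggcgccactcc
Slc18a2: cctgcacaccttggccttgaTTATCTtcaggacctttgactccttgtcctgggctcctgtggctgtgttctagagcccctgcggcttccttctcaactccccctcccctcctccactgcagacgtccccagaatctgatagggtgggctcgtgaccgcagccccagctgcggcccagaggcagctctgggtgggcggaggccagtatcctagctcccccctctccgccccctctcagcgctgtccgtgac
Tph1, distal start: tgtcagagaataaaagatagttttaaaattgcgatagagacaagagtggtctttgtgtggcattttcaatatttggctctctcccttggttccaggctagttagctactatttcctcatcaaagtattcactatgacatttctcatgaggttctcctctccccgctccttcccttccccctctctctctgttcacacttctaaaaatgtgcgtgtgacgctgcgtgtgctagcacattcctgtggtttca
Tph1, proximal start: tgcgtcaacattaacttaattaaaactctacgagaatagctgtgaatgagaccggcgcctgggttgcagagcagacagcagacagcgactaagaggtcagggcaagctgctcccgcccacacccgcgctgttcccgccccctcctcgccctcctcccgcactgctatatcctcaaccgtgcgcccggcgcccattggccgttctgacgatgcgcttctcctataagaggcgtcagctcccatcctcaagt
Promoters were given for 8 of the 9 members, all but Maob. Slc18a2 held 1 match to AGATAA, from 230 to 225 bases before the start. Ddc held 1 match to TATAAA at one of its starts, from 68 to 63 bases before it. Both matches lay on the strand opposite to the gene. The letters AGATAA were present in 9.99% of 32851 windows of the same length, CCGGAA in 12.0% and TATAAA in 12.4%. GC content was 64.8% for Slc6a4, 64.0% for Slc18a2, and 43.6% and 58.8% for the distal and proximal windows of Tph1.

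Levels per exon length differed widely among the members. Slc6a4 had the highest level, with a mean over the 20 joints of 188 normalized read counts per kb of exon, followed by Maob at 131, Maoa at 84.2, Kmo at 73.7, Haao at 68.7, Slc18a2 at 56.0 and Afmid at 54.9. Both enzymes of serotonin synthesis were far lower, Tph1 at 9.62 and Ddc at 2.51 normalized read counts per kb. Ddc rested on 11 to 50 reads per joint and Tph1 on 17 to 188, whereas no other member fell below 97 reads. The ratio of the highest to the lowest joint was 19.4 for Tph1 and lay between 2.07 and 3.75 for the others. The neuronal paralog Tph2 was also listed, at 5.72 per kb with values from 0.959 to 42.9 normalized read counts. Of the enzymes that send tryptophan elsewhere, Ido1, Ido2, Tdo2 and Il4i1 were not among the 14793 genes, so they have no level here.

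**Figure D1:**
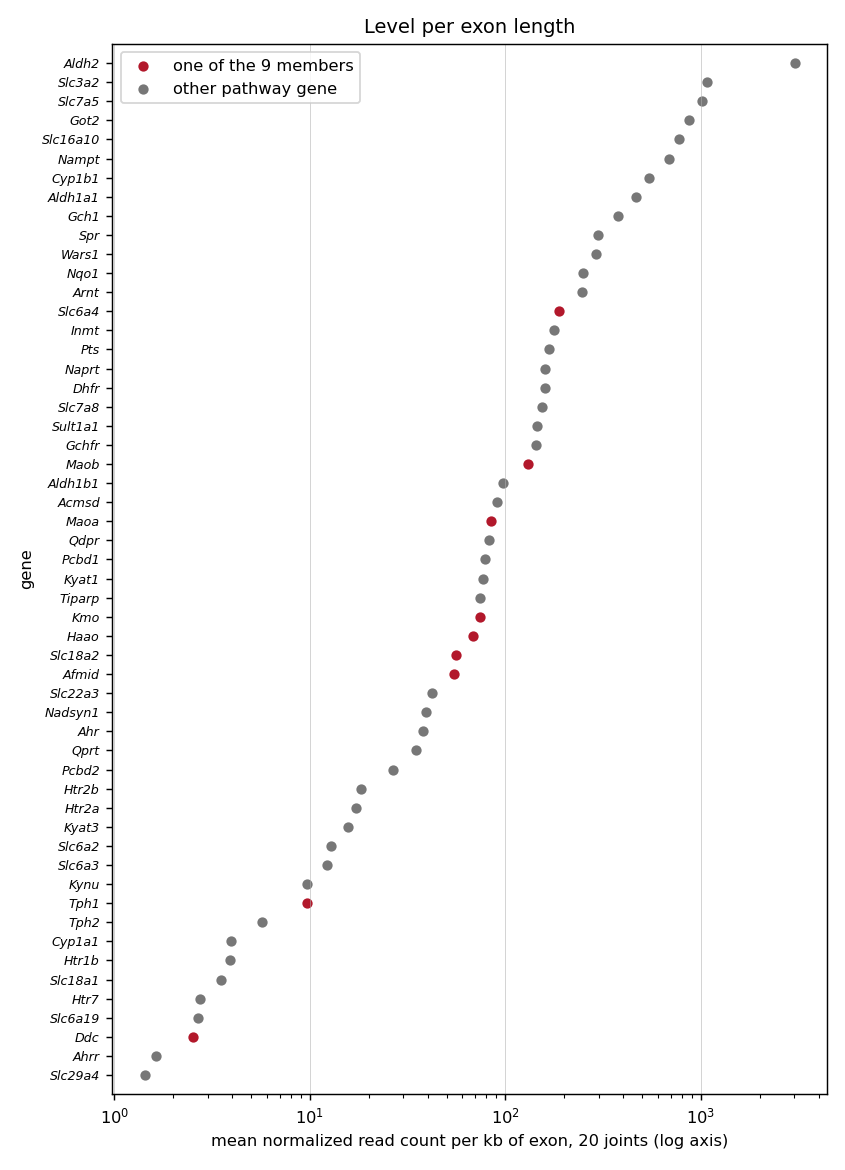
Mean normalized read count per kb of exon over the 20 joints, on a log axis, for the 9 members (red) and 45 other genes of the pathway lists (grey). Tph1 (9.62) and Ddc (2.51) lie near the low end, and Slc6a4 (188) is the highest of the members.

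Differences between groups were tested with limma on log2(normalized read count + 1) over all 20 joints, and 53 pairs of member and comparison were tested. Of these, 2 reached an unadjusted p of 0.05, both for Ddc, and 0 reached a false discovery rate (FDR, over all 14793 genes) of 0.05, the FDR of the 53 pairs lying between 0.495 and 0.9997. edgeR and DESeq2 on the recovered reads also left 0 members at that FDR and 2 pairs at the unadjusted threshold. No member combined an unadjusted p of 0.05 with a 2-fold difference. The 95% interval of the difference lay within 2-fold either way for 46 of the 53 pairs, and the groups overlapped in every pair. No share of all genes was computed for intervals or overlap, so those counts say nothing particular about the members. The counts at the thresholds are read against all genes. In MSC against CTRL, 8.55% of the genes reached the unadjusted threshold, 0.73% also differed 2-fold and 0.00676% reached the FDR threshold, with 0 of 9 members at any of them. In TLR against CTRL, 1 of 9 members reached the unadjusted threshold, against 3.58% of all genes, and 0 were also 2-fold apart, against 0.331%. In STING against CTRL, the unadjusted threshold held 0 members and 12.2% of all genes, and 2.06% of all genes were also 2-fold apart. In STING against MSC, the corresponding shares of all genes were 4.94% and 0.507%, with 0 of the 8 members tested. In TLR against MSC, 1 of 9 members reached the unadjusted threshold against 3.88% of all genes, and 0 were also 2-fold apart against 0.399%. In STING against TLR, 0 of 9 members reached it against 2.57% of all genes, and 0.622% of all genes were also 2-fold apart. The share at an FDR of 0.05 was 0% in these last 5 comparisons. Over the 6 comparisons together, 5.96% of all gene results reached the unadjusted threshold, beside 2 of the 53 member pairs.

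**Figure D2:**
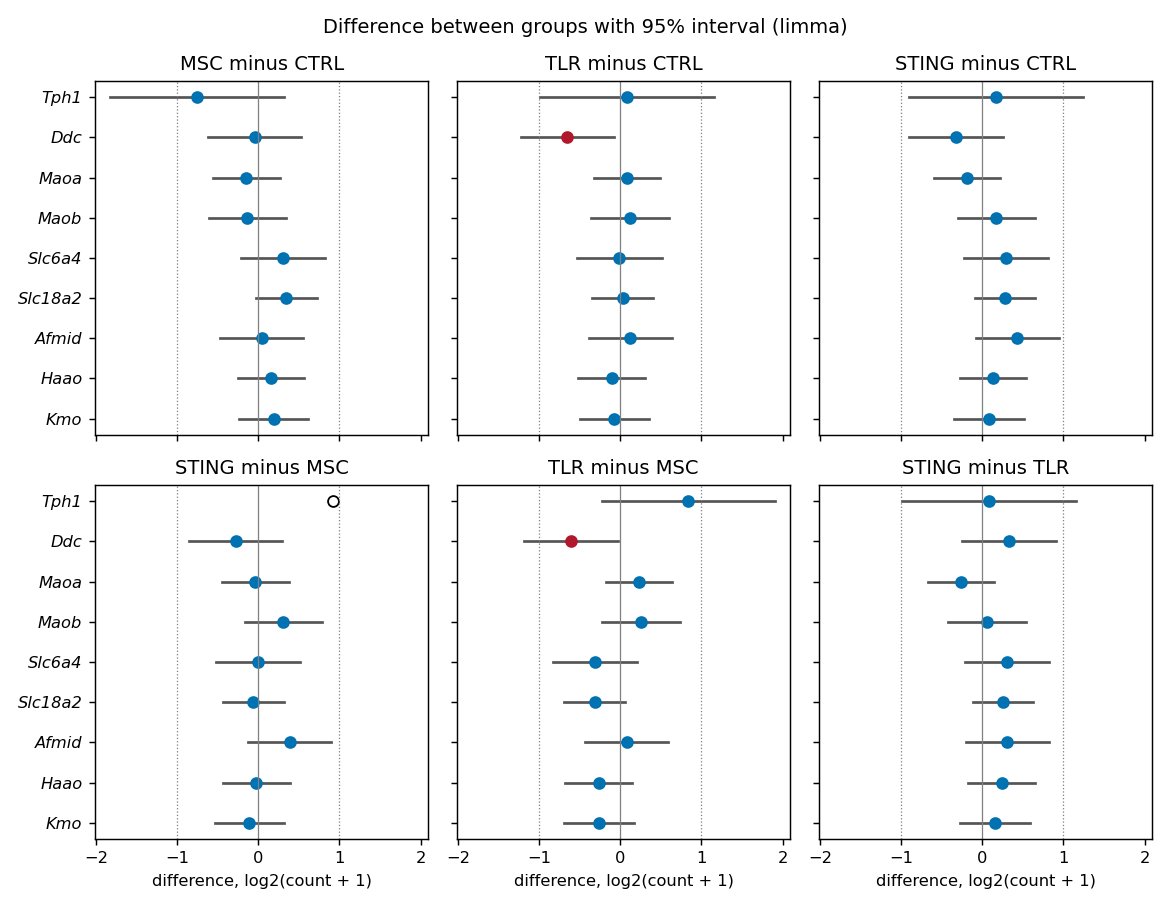
Difference between 2 groups in log2(normalized read count + 1) for each member (points) with its 95% interval from limma (lines), in 6 panels. Red points had an unadjusted p of at most 0.05 (Ddc in TLR minus CTRL and TLR minus MSC), the open point (Tph1 in STING minus MSC) is shown with no interval, and dotted lines mark a 2-fold difference.

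Tph1, the first enzyme of the serotonin branch, had the widest range of all members, and 1 joint decided the level of its group. In the CTRL joints it was counted at 47.6, 84.6, 26.4, 77.6 and 55.8 normalized read counts. The MSC joints gave 12.7, 27.8, 50.7, 51.1 and 33.6, and the TLR joints 66.6, 56.6, 81.8, 40.4 and 49.7. The MSC values lay low and the TLR values close together, but both overlapped CTRL. In the STING joints the values were 246.5, 83.2, 38.6, 21.2 and 48.0. STING replicate 1 was the highest of all 20 joints by a wide margin, while the other 4 STING joints lay within or close to the range of the CTRL joints. That joint held 188 reads of Tph1, with an exact 95% Poisson interval of 162 to 217 that covers counting error only.

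As group levels, Tph1 stood at 58.4 ± 23.5 (SD, n = 5) in CTRL, 35.2 ± 16.3 in MSC, 59.0 ± 15.9 in TLR and 87.5 ± 91.7 in STING, where the SD exceeded the mean. The difference of STING from MSC was 0.92 on the log2(normalized read count + 1) scale, 0.42 without STING replicate 1 and 0.61 without MSC replicate 1. In the other direction, this difference was 1.29 without STING replicate 4, 1.29 with edgeR and 1.31 with DESeq2 on the recovered reads. It was singled out by the study on these same joints and is given as a description. TLR was 0.84 above MSC on the same scale (95% interval -0.23 to 1.91, limma, p = 0.117, FDR = 0.978), with 3 of 5 TLR joints above every MSC joint and an exact permutation p of 0.0556. Fitted on these 2 groups alone, the same difference had an unadjusted limma p of 0.0482, beside the exact permutation p just given. MSC was lower than CTRL by a log2 difference of -0.76 (95% interval -1.83 to 0.31, limma, FDR = 0.695, exact permutation p = 0.151). Without MSC replicate 1, the lowest joint, these differences were 0.53 for TLR above MSC and -0.45 for MSC below CTRL. STING differed from CTRL by 0.16 (95% interval -0.91 to 1.24) and from TLR by 0.08 (-0.99 to 1.15), and these differences became -0.34 and -0.42 without STING replicate 1. The order of the mean levels was thus STING, TLR, CTRL and MSC, and no tested neighbours in that order differed beyond their spread.

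**Figure D3:**
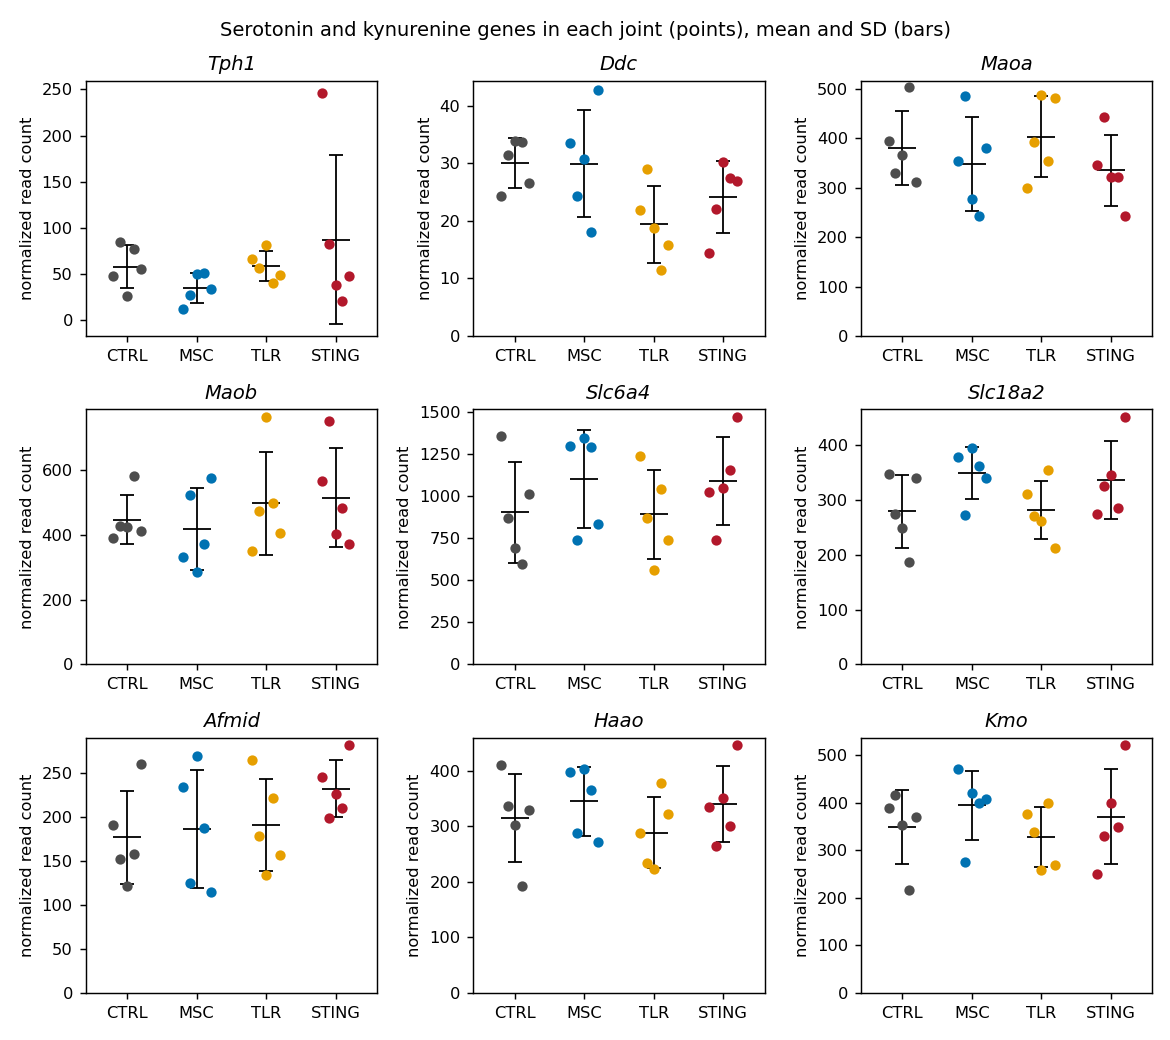
Normalized read count of each member in each of the 20 joints (points) by group, with the mean and SD of 5 joints (black bars), in 9 panels. The Tph1 panel shows 1 STING joint at 246.5 above all other joints, and the Ddc panel shows 4 of 5 TLR joints below every CTRL joint.

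Ddc, which turns 5-hydroxytryptophan into serotonin and DOPA into dopamine, was the 1 member past the unadjusted threshold. The CTRL joints gave 24.3, 31.4, 33.9, 33.8 and 26.5 normalized read counts, and the TLR joints 21.9, 29.1, 18.8, 11.4 and 15.8. Thus 4 of 5 TLR joints lay below every CTRL joint, and TLR replicate 2 lay within the CTRL range. The MSC joints gave 33.5, 24.4, 30.8, 18.1 and 42.8, and the STING joints 14.4, 22.02, 30.2, 27.5 and 26.9. The mean was 30.0 ± 4.35 (SD, n = 5) in CTRL, 29.9 ± 9.32 in MSC, 19.4 ± 6.67 in TLR and 24.2 ± 6.22 in STING. TLR differed from CTRL by -0.65 on the log2 scale (95% interval -1.23 to -0.08, limma, p = 0.0282, FDR = 0.9997, exact permutation p = 0.0238). Against MSC the TLR difference was -0.61 (95% interval -1.18 to -0.03, limma, p = 0.0399, FDR = 0.978, exact permutation p = 0.0794). Both comparisons share the TLR joints. The first call was lost without CTRL replicate 3 or 4 or TLR replicate 4 or 5 (difference from -0.49 to -0.61), and the second without MSC replicate 1, 3 or 5 or TLR replicate 3, 4 or 5 (difference from -0.44 to -0.61). With 11 to 36 reads of Ddc in the TLR joints, counting error is a large part of each value. An overlapping gene on the opposite strand, 1700042O10Rik, shares exon bases with Ddc and was not among the 14793 genes.

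The monoamine oxidases differed between groups by less than the spread between joints. Maoa had means of 380 ± 75.6 (SD, n = 5) in CTRL, 348 ± 95.02 in MSC, 403 ± 81.8 in TLR and 335 ± 71.8 in STING, and single joints ran from 243 to 502 normalized read counts. Its differences lay between -0.27 and 0.23 on the log2 scale, with intervals between -0.68 and 0.64. Maob, the oxidase on the same stretch of the X chromosome, had means of 447 ± 76.4, 417 ± 126, 497 ± 159 and 515 ± 152 in the same order. The CTRL joints gave 389.6, 426.5, 423.5, 580.9 and 413.0, so that 4 lay close together and replicate 4 stood above them. The highest joints of all were TLR replicate 3 at 762.8 and STING replicate 2 at 751.0. The differences of Maob lay between -0.13 and 0.31, with intervals between -0.61 and 0.79, and its smallest p with limma was 0.194.

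Slc6a4, the serotonin transporter, was spread widely within every group and overlapped between all groups. The CTRL joints gave 1354, 866, 689, 596 and 1013 normalized read counts, and the MSC joints 1295, 737, 1345, 1288 and 836. The TLR joints gave 1240, 867, 563, 1043 and 738, and the STING joints 1025, 741, 1047, 1152 and 1468. Means were higher in MSC (1100 ± 289, SD, n = 5) and STING (1087 ± 262) than in CTRL (904 ± 299) and TLR (890 ± 263), but each difference was within the spread. The differences lay between -0.31 and 0.31 on the log2 scale, with intervals between -0.83 and 0.83 and a smallest limma p of 0.222. By group median, Slc6a4 stood at 1288 in MSC and 1047 in STING against 866 in CTRL and 867 in TLR. The summed counts of 10 megakaryocyte and platelet markers had group medians of 48765 in MSC and 41947 in STING against 35170 in CTRL and 30569 in TLR.

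Slc18a2, the vesicular monoamine transporter, gave 348, 274, 249, 187 and 339 normalized read counts in the CTRL joints and 378, 272, 394, 362 and 340 in the MSC joints. The TLR joints gave 310, 271, 261, 354 and 212, and the STING joints 275, 325, 345, 285 and 452. In MSC, 3 of 5 joints lay above every CTRL joint, and the difference was 0.34 on the log2 scale (95% interval -0.03 to 0.72, limma, p = 0.0703, FDR = 0.622, exact permutation p = 0.0873). TLR differed from MSC by -0.32 (95% interval -0.69 to 0.06, limma, p = 0.0922, FDR = 0.978, exact permutation p = 0.0794). These pairs missed the unadjusted threshold and passed it when single joints were left out, the first without CTRL replicate 1 or 5 or MSC replicate 2 (difference 0.42 to 0.43), and the second without MSC replicate 2 or TLR replicate 4 (difference -0.40 in both). Pdzd8, a gene on the opposite strand, shares exon bases with Slc18a2, and its counts of 1959 to 3199 exceeded those of Slc18a2 in every joint. After subtraction of group means, the pair gave Pearson's r = 0.53 over the 20 joints (Spearman's rho = 0.57, permutation p = 0.0158 for r). Without the 2 joints farthest from the median r was 0.42. Strand use in counting is not stated, so reads of Slc18a2 and Pdzd8 cannot be told apart where these genes overlap.

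The 3 enzymes of the kynurenine route also overlapped between all groups. Afmid gave 190.5, 152.2, 121.9, 158.0 and 259.9 normalized read counts in the CTRL joints and 245.2, 198.2, 225.2, 209.9 and 281.1 in the STING joints. Every STING joint was above the median of the CTRL joints, while CTRL replicate 5 exceeded 4 of the STING joints. The difference of STING from CTRL was 0.43 on the log2 scale (95% interval -0.08 to 0.94, limma, p = 0.0960, FDR = 0.495, exact permutation p = 0.0714), the lowest FDR of the 53 pairs. It passed the unadjusted threshold without CTRL replicate 5 (difference 0.58) and in a limma fit of these 2 groups alone. The difference of STING from MSC was 0.39 (95% interval -0.13 to 0.90, limma, FDR = 0.938, exact permutation p = 0.206), and it was 0.54 and past the unadjusted threshold without MSC replicate 3. Means of Afmid were 177 ± 52.6 (SD, n = 5) in CTRL, 186 ± 67.0 in MSC, 191 ± 52.3 in TLR and 232 ± 32.7 in STING.

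Kmo had means of 349 ± 77.9 (SD, n = 5) in CTRL, 394 ± 72.5 in MSC, 328 ± 62.9 in TLR and 370 ± 99.9 in STING, and Haao 314 ± 78.9, 345 ± 61.8, 289 ± 64.0 and 339 ± 68.3. Both were lowest on average in TLR. The differences lay between -0.26 and 0.19 for Kmo and between -0.27 and 0.24 for Haao on the log2 scale, and the widest intervals reached -0.69 and 0.62 for Kmo and -0.68 and 0.65 for Haao. The joints at the extremes were shared by both genes. CTRL replicate 4 was the lowest joint for Kmo (216) and for Haao (193), and STING replicate 5 the highest for both (521 and 446).

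The variation within groups was then compared between members over the 20 joints, after the group mean was subtracted from each log2 value. Slc6a4, Slc18a2, Afmid, Haao and Kmo varied together, with Pearson's r between 0.47 and 0.87 and Spearman's rho between 0.54 and 0.85 over their 10 pairs, of which 9 had an adjusted permutation p of 0.05 or less. Maoa and Maob varied with each other (r = 0.73, rho = 0.68, permutation p = 0.00034, adjusted 0.00134). Against the other 5 genes both ran the opposite way, with r between -0.81 and -0.49 and rho between -0.76 and -0.55 over 10 pairs, 9 of them at an adjusted p of 0.05 or less. Tph1 and Ddc did not follow either set, with r between -0.41 and 0.28 in their 15 pairs and 0 at that threshold (adjusted p 0.117 or higher). Both rested on few reads, 17 to 188 and 11 to 50 per joint, and counting error weakens r. The size of this weakening was not computed, so low values of r cannot show that these genes vary apart from the others. For Tph1 the joints differed by more than counting error. Its joints with the fewest and most reads, STING replicates 4 and 1, had Poisson intervals of 9.90 to 27.2 and 162 to 217 reads. In all, 36 pairs were computed, p-values were adjusted over them with the Benjamini-Hochberg method, and 19 reached the threshold. Without the 2 joints farthest from the median, r lay between 0.49 and 0.82 in the first set of 10 pairs and between -0.74 and -0.56 in the second. Each point is 1 library, so the 2 values of a pair share its depth, its dissection and the mixture of tissues it holds.

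**Figure D4:**
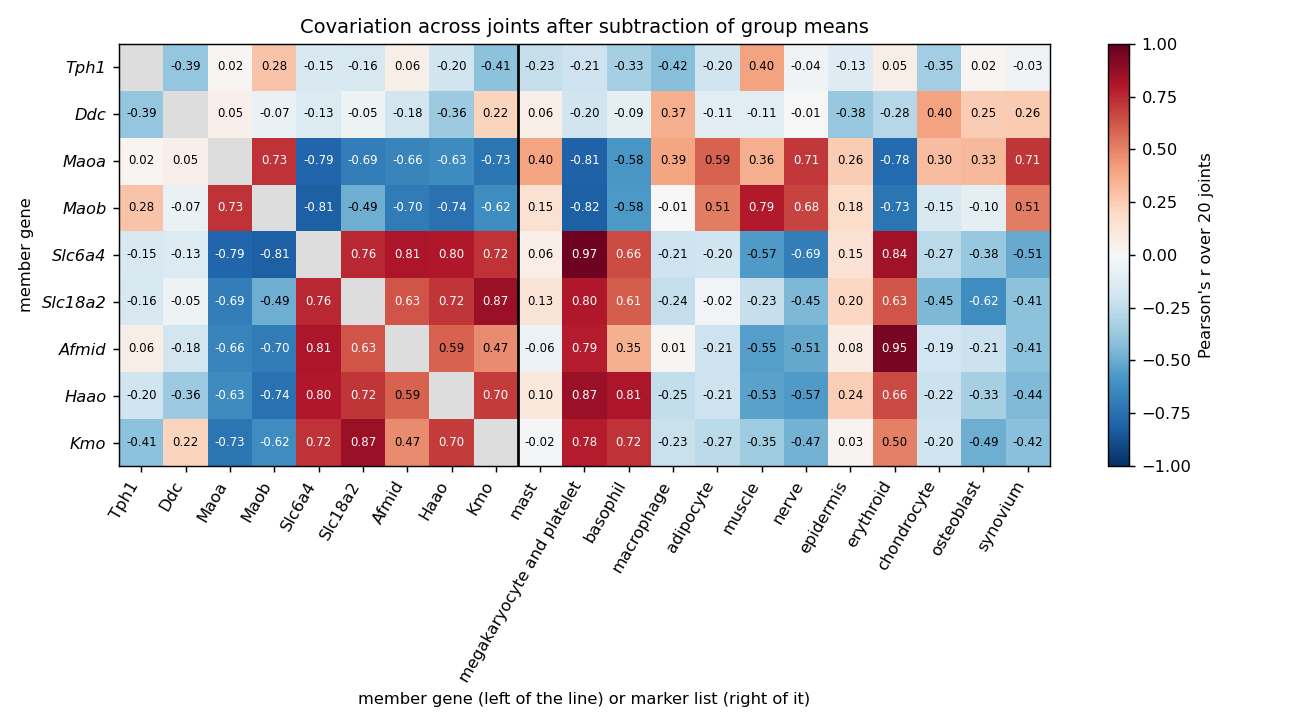
Pearson's r over 20 joints, after subtraction of group means, of each member with the other members (left of the line) and with 12 lists of cell type markers (right of it), in red for positive and blue for negative values. The first 2 rows (Tph1 and Ddc) stay between -0.42 and 0.40, and the strongest cell is Slc6a4 with the megakaryocyte and platelet list (0.97).

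The 9 relations of members to marker lists planned for this question were chosen with earlier results of these data known. They separated the members further. Slc6a4 followed the mean of the 10 megakaryocyte and platelet markers closely (r = 0.97, rho = 0.98, n = 20, permutation p = 1e-05 for each, the smallest that 100000 permutations can give, adjusted 9e-05 for r), and r was 0.97 without the 2 farthest joints. Slc18a2 followed the same list (r = 0.80, rho = 0.84, permutation p = 5e-05 and 1e-05, adjusted 0.000225 for r, 0.78 without the 2 joints). Tph1 showed r = -0.21 with it (rho = -0.17, permutation p = 0.376, adjusted 0.565). With 9 mast cell markers, among them the histidine decarboxylase gene Hdc and the protease gene Cpa3, Tph1 gave r = -0.23, Ddc 0.06, Slc18a2 0.13 and Maob 0.15, all with an adjusted permutation p of 0.565 or higher. The mast cell list was present in every joint, summing to 3327 to 8744 normalized read counts, and Tpsab1 and Mrgprb2 of that list were not among the 14793 genes. Kmo, an enzyme known from macrophages and microglia, gave r = -0.23 with 7 macrophage markers (rho = -0.11, permutation p = 0.337, adjusted 0.565). Maob gave r = 0.51 with 5 adipocyte markers (rho = 0.53, permutation p = 0.0217, adjusted 0.0651), and 0.71 without the 2 farthest joints.

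Slc6a4 was also expressed relative to that platelet list, in a step chosen after the values were seen. Its spread within groups was 0.42 before and 0.11 after this step on the log2 scale, which restates the r of 0.97 in other units. The relative levels differed by at most 0.15 between groups, the value for STING below MSC, with 4 of 5 STING joints below every MSC joint (exact permutation p = 0.0556, adjusted over 12 comparisons 0.667). The spread of Slc18a2 was 0.29 before and 0.27 after the same step, and its relative level differed most between STING and MSC, by -0.20 (exact permutation p = 0.302, adjusted 0.730).

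All 9 members were also set against all 12 lists, a family chosen after the values were seen, in which 29 relations had an adjusted permutation p of 0.05 or less. Afmid followed 5 erythroid genes most closely (r = 0.95, rho = 0.94, permutation p = 1e-05, adjusted 0.00036, r = 0.93 without the 2 farthest joints). Haao followed the megakaryocyte and platelet list (r = 0.87, rho = 0.86, permutation p = 1e-05, adjusted 0.00036) and 3 basophil genes (r = 0.81, rho = 0.78, permutation p = 5e-05, adjusted 0.00054), which are marrow-derived populations. Kmo followed the platelet list (r = 0.78, rho = 0.75, permutation p = 4e-05, adjusted 0.00054, 0.69 without the 2 farthest joints) and the basophil genes (r = 0.72, rho = 0.68, permutation p = 0.00038, adjusted 0.00274, 0.71 without 2), and Afmid also followed the platelet list (r = 0.79, rho = 0.79, permutation p = 7e-05, adjusted 0.000687). The strongest relations of Maoa and Maob were opposite to the platelet list (Maoa r = -0.81, rho = -0.78, permutation p = 4e-05, and Maob r = -0.82, rho = -0.78, permutation p = 3e-05, both adjusted 0.00054, and both -0.76 without the 2 farthest joints). Maob followed 5 skeletal muscle genes (r = 0.79, rho = 0.81, permutation p = 5e-05, adjusted 0.00054, 0.70 without the 2 farthest joints). Maoa followed the synovial lining list (r = 0.71, rho = 0.73, permutation p = 8e-05, adjusted 0.00072, 0.63 without the 2 joints) and was opposite to the erythroid list (r = -0.78, rho = -0.76, permutation p = 0.00011, adjusted 0.000914). Maoa and Maob also followed the list of nerve and Schwann cell genes (r = 0.71 and 0.68, adjusted permutation p = 0.00391 and 0.00612). Maoa further followed the adipocyte list (r = 0.59, adjusted permutation p = 0.0292). Maob was opposite to the erythroid list as well (r = -0.73, adjusted permutation p = 0.00231). Slc6a4, Slc18a2 and Haao also followed the erythroid list (r = 0.84, 0.63 and 0.66, adjusted permutation p = 0.00054, 0.0172 and 0.0083). Slc6a4 and Slc18a2 also followed the basophil genes (r = 0.66 and 0.61, adjusted permutation p = 0.0105 and 0.0211). The relation to the platelet list was thus not the only one for these genes. Tph1 and Ddc, with their few reads, reached the threshold with 0 of 12 lists each. The part of these cell types in the group levels was not tested.

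**Figure D5:**
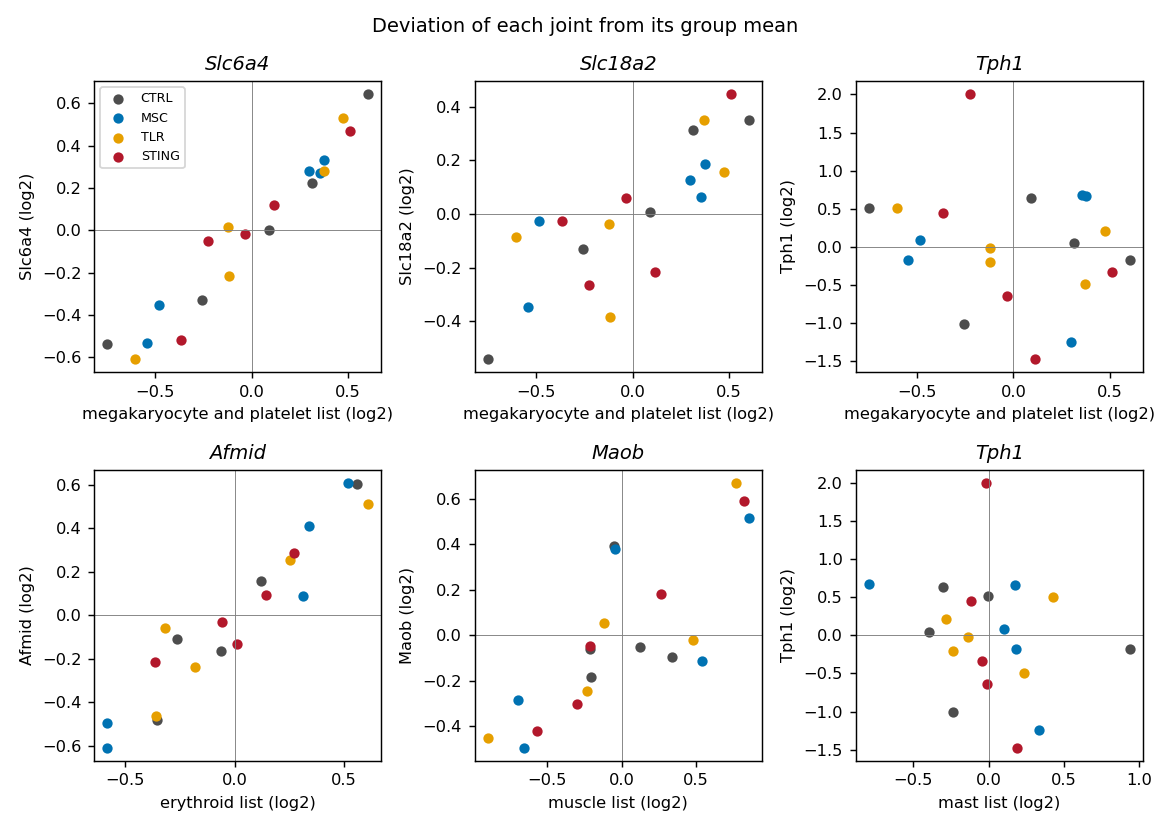
Deviation of each joint from its group mean on the log2 scale for a member (vertical axis) and the mean of a marker list (horizontal axis), coloured by group, in 6 panels of 20 joints. Slc6a4 (r = 0.97) and Afmid (r = 0.95) lie along a line with their lists, whereas Tph1 lies in a cloud against the platelet (r = -0.21) and mast cell (r = -0.23) lists, with 1 STING joint at the top.

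The genes most like each member among the other 14784 genes were ranked by the same r over 20 joints. As these are the highest of all genes, no test is given. For Slc6a4 they were Alox12, the platelet lipoxygenase (r = 0.97), Ppbp, a platelet chemokine (0.97), and Tubb1, the platelet tubulin (0.97). For Afmid they were Chek2, a checkpoint kinase (0.96), Alas2, the first enzyme of erythroid heme synthesis (0.96), and Kif18a, a mitotic kinesin (0.96). Tk1, the thymidine kinase gene that shares exon bases with Afmid on the opposite strand, gave r = 0.93 (rho = 0.92, permutation p = 1e-05, 0.92 without the 2 farthest joints) at 1933 to 4669 normalized read counts. Since the counting is not stated to use strand, reads of the pair cannot be told apart where they overlap.

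For Kmo the most similar genes were Ralgps2 (r = 0.93), H2-Ob, an antigen-presentation subunit of B cells (0.93), and Cd79b, part of the B cell receptor (0.92). Fh1, which shares exon bases with Kmo on the opposite strand, gave r = -0.09 (rho = -0.19, permutation p = 0.697, -0.28 without the 2 farthest joints). For Haao they were Tspoap1, Sirt7 and Serpinb10 (0.93 each), and for Slc18a2 Ipo11, Cc2d2b and Kalrn (0.88 to 0.89). Maoa was followed by Zbtb4, Adh7 and Reep5 (0.94 to 0.95), and Maob by Slc25a23, a mitochondrial carrier (0.96), Ghr, the growth hormone receptor (0.94), and Anxa6 (0.93). The number of genes above an r of 0.7 was 2467 for Slc6a4 and 2011 for Maoa, but 18 for Tph1 and 7 for Ddc. Tph1 and Ddc rested on few reads, and counting error weakens their r.

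For Tph1 the most similar genes included Hsp90ab1, a cytosolic chaperone (r = 0.79, rho = 0.85), Dusp8, a phosphatase of MAP kinases (0.77, rho = 0.79), Npnt, an integrin ligand of the matrix (0.77, rho = 0.78), and Ulk1, an autophagy kinase (0.76, rho = 0.83). Without the 2 joints farthest from the median r lay between 0.73 and 0.88 for these genes. For Ddc they were Hdac9, a histone deacetylase (0.79), Nckap5 (0.75) and Lrrc18 (0.71).

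The wider pathway was followed with lists of 64 other genes, of which 45 were in the table. At an unadjusted p of 0.05 with limma, 2 were higher and 1 lower in MSC against CTRL, 0 in TLR against CTRL, 2 higher and 1 lower in STING against CTRL, 1 higher in STING against MSC, 2 higher in TLR against MSC, and 1 higher and 2 lower in STING against TLR. As shares of the 45 genes these counts were near or below the shares of all genes at that threshold, which were 8.55%, 3.58%, 12.2%, 4.94%, 3.88% and 2.57% in the same order, except for 3 of 45 in STING against TLR. Over the 6 comparisons together, 12 of 270 list results (4.44%) reached it, against 5.96% of all genes. No list gene reached an FDR of 0.05 in limma. The median log2 difference of the 45 genes lay between -0.03 and 0.07 over the 6 comparisons, and that of all genes between -0.04 and 0.03.

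Among enzymes that take tryptophan at the entry, Tph2 gave differences between -0.82 and 0.16 with no limma p below 0.216. The tryptophanyl-tRNA synthetase gene Wars1, listed as Wars, was 0.17 higher in STING than in MSC (1896 ± 93.3 against 1688 ± 77.1, SD, n = 5, limma, p = 0.0106, FDR = 0.852), with 4 of 5 STING joints above every MSC joint (exact permutation p = 0.0159). Of 9 kynurenine route genes in the table, Nampt, which recycles nicotinamide into NAD, was 0.20 higher in STING than in CTRL (limma, FDR = 0.382, exact permutation p = 0.0556) and 0.21 higher than in TLR (FDR = 0.890, exact permutation p = 0.0397). The other 8, including Kynu and Qprt, did not reach the threshold in any comparison, and neither did the 5 transporters of tryptophan or the 8 genes of tetrahydrobiopterin synthesis and recycling. Gch1, the first enzyme of that cofactor, was abundant, at 1767 to 3434 normalized read counts per joint.

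Of 14 serotonin receptor genes, 4 were in the table, and Htr1b, an inhibitory receptor, was 1.11 higher in MSC than in CTRL (25.4 ± 9.15 against 13.2 ± 9.81 normalized read counts, SD, n = 5, limma, p = 0.0116, FDR = 0.391, exact permutation p = 0.0635). Htr2a ran from 28.5 to 199, Htr2b from 9.59 to 109 and Htr7 from 0.99 to 22.4 normalized read counts, and none of these 3 reached the threshold. Slc22a3, a low-affinity monoamine carrier, was 0.39 higher in MSC than in CTRL (limma, FDR = 0.547, exact permutation p = 0.0556), and the norepinephrine transporter gene Slc6a2 was lower in STING than in TLR, by a log2 difference of -1.19 (limma, FDR = 0.890, exact permutation p = 0.0476). Aldh2, which oxidizes the aldehyde that monoamine oxidases release, was 0.24 higher in STING than in CTRL (limma, FDR = 0.394, exact permutation p = 0.0556).

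The aryl hydrocarbon receptor, which binds kynurenine and related compounds, was followed with 7 genes. Ahr itself was lower in STING than in CTRL (193 ± 39.0 against 269 ± 68.7 normalized read counts, SD, n = 5), a log2 difference of -0.47 (limma, p = 0.0238, FDR = 0.368, exact permutation p = 0.0556). Its partner Arnt was lower in MSC than in CTRL by a log2 difference of -0.14 (limma, FDR = 0.507, exact permutation p = 0.0397), and it was 0.16 higher in TLR than in MSC (FDR = 0.978, exact permutation p = 0.0317). The receptor's target Cyp1b1 ran from 2001 to 3832 in the STING joints and from 4022 to 6055 in the TLR joints, so the groups did not overlap. The difference was -0.71 (95% interval -1.30 to -0.13, limma, p = 0.0200, FDR = 0.890), and the exact permutation p of 0.00794 is the smallest that 5 joints against 5 can give. This is 1 of 270 list results, and the share of all genes without overlap in STING against TLR was not computed. Cyp1b1 was also 0.63 higher in TLR than in MSC (limma, FDR = 0.978, exact permutation p = 0.0794). The summed synovial lining genes ran from 46866 to 214167 in STING and from 215516 to 413965 in TLR, without overlap as well, and their part in the level of Cyp1b1 was not tested. The targets Cyp1a1, Tiparp and Nqo1 and the repressor Ahrr did not reach the threshold in any comparison.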

How the data were processed

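Knee joints of 20 mice, 5 in each of the CTRL, MSC, TLR and STING groups, were sequenced as polyA RNA with a TruSeq kit. Per the labels and methods, the authors aligned reads to GRCm39 with STAR (2.7.3a) and counted genes with HTSeq. The authors deposited median-ratio normalized values, a signal rather than whole counts, for 14793 genes. Each value was a whole multiple of the value of 1 read for 99.8% to 99.9% of genes (tolerance 0.1 read), which gave back the reads and the depth, from 27955496 to 52529973 per joint. The lowest gene mean was 9.40, no gene was removed. A filter by the authors, strand use in counting and the collection time (stated differently in separate passages) could not be settled from the sources used here.

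The 9 members, the pathway and marker lists and the tests were chosen with earlier results of these data known. Genes named are the members, the tryptophan entry enzymes, list genes with p of 0.05 or less in any comparison, and the genes most like each member (5 for Tph1, of which 1 is not reported here, and 3 for the others). Further list genes with a value were chosen after their values were seen. Groups came from the labels. limma 3.58.1 (trend, R 4.3.3) was fitted to log2(normalized read count + 1) over all 20 joints, two-sided, with Benjamini-Hochberg adjustment over all genes, in place of the test of counts the study names. This scale understates the change of low genes. An exact two-sided permutation test over 252 splits stood beside it. Same-numbered joints are different mice, so p-values measure the spread between mice of a group. Correlations over 20 joints used 100000 permutations (scipy 1.17.1).

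Each choice was also varied alone. The pseudocount was set to 0.5 or 5, genes under a mean of 20 were dropped, values were quantile normalized or scaled by TMM factors, the 2 groups compared were fitted alone, the replicate number entered as a block term, single joints were omitted in turn, and reads recovered from the values were tested with edgeR 4.0.16 and DESeq2 1.42.0. Tested on simulated counts for STING against MSC with 200 of 14793 genes changed, limma recovered 65.5% of 2-fold and 95% of 4-fold changes at an FDR of 0.05. The changed genes were drawn at random from all levels, and counts were independent between genes. These shares therefore do not give the power for low members such as Tph1 and Ddc. Gene lengths came from the GENCODE annotation of GRCm39 (14770 genes matched), and promoters from RefSeq (GRCm38.p6).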

Additional observations from a re-analysis of the deposited data

Results flagged for a closer look

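In 36 groups of 5 joints, 4 for each of the 9 members, 2 joints stood farther from the rest of their group than a Dixon test allows at 95%, and chance alone marks about 1 in 20 such groups. The test was run on normalized read counts and not on the log2 scale used elsewhere. Tph1 in STING replicate 1 was at 246.5 normalized read counts, while the other 4 STING joints lay between 21.2 and 83.2, and the gap took a share of 0.725 of the range of the group. As log2 deviations from the group mean, STING replicates 1, 2 and 4 of Tph1 were at 2.00, 0.45 and -1.47, a less isolated position. Maob in CTRL replicate 4 was at 580.9, while the other CTRL joints lay between 389.6 and 426.5, and the gap took a share of 0.807 of the range. In the same joint Slc6a4, Slc18a2, Haao and Kmo were the lowest of the CTRL group and Maoa was the highest.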

How the results depend on the processing

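The 9 members gave 2 pairs of 53 at an unadjusted p of 0.05 over the 6 comparisons, where 5.96% of all genes reached it. They gave 1 pair with the replicate block (5.23% of all genes) and from 0 to 4 when single joints were left out. The count was 0 without TLR replicate 5 (5.62% of all genes), and 4 without CTRL replicate 5 (5.96%) or MSC replicate 2 (8.93%). The pathway lists gave 12 such results of 270 (4.44%, against 5.96% of all genes over the 6 comparisons), 20 with DESeq2 on the recovered reads (7.41% against 7.45%) and from 9 to 21 when single joints were left out. The count of tested pairs at an FDR of 0.05 and that at an unadjusted p of 0.05 with a 2-fold difference were 0 under each of these alternatives. Of 1007 recomputed differences with a test, 0 reversed a call, 12 lost and 9 gained the unadjusted threshold. Tph1 in STING against MSC had no test in any of them and entered neither count. Besides single joints, the Ddc difference of TLR from MSC lost it in a limma fit of the 2 groups alone and with the replicate block, at the same difference of -0.61, and the cause was not tested. Tph1 in STING minus MSC ranged from 0.42 without STING replicate 1 to 1.29 without STING replicate 4, and was 1.29 with edgeR and 1.31 with DESeq2. Tph1 in TLR minus MSC passed 2-fold without MSC replicate 3 or 4 (1.01 in both), as did MSC minus CTRL without CTRL replicate 3 (-1.01). The replicate block changed no other call on a member. Same-numbered joints came from different mice, so the numbers pair no joints of 1 animal. The correlation of their deviations averaged between -0.14 and 0.11 over the 6 comparisons. Single values ran from -0.66 to 0.46 in MSC against CTRL, and a handling order shared by replicate number was not tested. Ddc and Tph1, with as few as 11 and 17 reads, are the members for which depth limits the comparison most.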
